A study of Mus musculus with 12 samples.

Results

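The genes described here encode the subunits of the mitochondrial respiratory chain complexes I to IV, with cytochrome c, in mouse skin. A gene was taken where its platform symbol begins with Nduf, Uqcr or Sdh followed by a subunit letter, or with Cox5, Cox6, Cox7 or Cox8, or is Cox4i1, Cycs or Cyc1. Predicted genes, pseudogenes and assembly factors were left out. Of 19938 genes with a probe set of their own, 66 were members: 36 of complex I, 4 of complex II, 9 of complex III, 16 of complex IV and 1 for cytochrome c. Another 6 probe sets that carry a member symbol beside a further symbol were not used, so Cox7c and Ndufb4 are not analysed here.

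Skin was taken from female Balb/c mice, which were either left untreated or given RNAdjuvant, an RNA-based vaccine adjuvant, into the dermis at a labelled dose of 25 mg, a unit that could not be checked and may not be milligrams. The groups were untreated skin and skin at 1.5 h, 6 h and 24 h, with 3 arrays each, called biological replicates in the labels. The sources do not say whether replicates of a group are different mice. There was no group injected with carrier alone in the samples analysed here.

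The respiratory chain moves electrons from NADH and succinate to oxygen and pumps protons across the inner mitochondrial membrane, and ATP synthase uses that gradient. Complex I oxidises NADH and complex II oxidises succinate. Both hand electrons through ubiquinone to complex III, from which cytochrome c carries them to complex IV, the cytochrome c oxidase. Nearly all subunits are encoded in the nucleus, and some complex IV subunits exist as a ubiquitous form and a form of heart and skeletal muscle. The transcription factors NRF1, GABP and YY1 are known activators of many of these genes.

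Most members were lower at 6 h than at 1.5 h. The promoters of 4 are shown as examples: Sdhd, Uqcr11, cytochrome c and the muscle form Cox7a1. Sdhd and Uqcr11 passed the test of 6 h against 1.5 h whichever single array was left out. Ndufa4l2, Ndufb2 and Ndufs7, which are not shown, did so too. Each stretch runs from 220 bases before the start of the gene to 30 after it, in the direction of the gene, from RefSeq on GRCm38.p6. Capitals mark the NRF1 core GCGCATGCG, the short NRF1 site TGCGCA and the GABP core CCGGAAG on either strand.
Sdhd, chr9:50603820-50604069, minus strand: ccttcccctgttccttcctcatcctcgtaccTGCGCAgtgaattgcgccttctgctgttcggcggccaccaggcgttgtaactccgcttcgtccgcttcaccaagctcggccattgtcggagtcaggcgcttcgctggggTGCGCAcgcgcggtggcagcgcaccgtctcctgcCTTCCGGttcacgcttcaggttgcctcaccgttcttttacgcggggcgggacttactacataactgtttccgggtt
Uqcr11, chr10:80406792-80407041, minus strand: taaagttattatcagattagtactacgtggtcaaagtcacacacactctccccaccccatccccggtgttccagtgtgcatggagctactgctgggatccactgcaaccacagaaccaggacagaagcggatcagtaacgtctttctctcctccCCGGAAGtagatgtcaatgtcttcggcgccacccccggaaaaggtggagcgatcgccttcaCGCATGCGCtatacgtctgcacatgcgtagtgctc
Cycs, chr6:50566540-50566789, minus strand: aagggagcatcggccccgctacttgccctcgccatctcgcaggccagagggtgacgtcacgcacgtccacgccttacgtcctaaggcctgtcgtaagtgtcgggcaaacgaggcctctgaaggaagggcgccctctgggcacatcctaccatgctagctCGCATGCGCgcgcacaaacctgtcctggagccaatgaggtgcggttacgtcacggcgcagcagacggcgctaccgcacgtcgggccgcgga
Cox7a1, chr7:30183951-30184200, plus strand: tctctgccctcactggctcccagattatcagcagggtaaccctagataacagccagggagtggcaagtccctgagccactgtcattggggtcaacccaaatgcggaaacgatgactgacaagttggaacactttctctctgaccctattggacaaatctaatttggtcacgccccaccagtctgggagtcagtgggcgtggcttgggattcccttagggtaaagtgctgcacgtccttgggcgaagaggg
Sdhd holds 2 short sites and a GABP core, Uqcr11 an NRF1 core and a GABP core, Cycs an NRF1 core, and the Cox7a1 stretch none of these letters.

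Promoter windows from 250 bases before to 50 after the start were at hand for 53 of the 66 members. The NRF1 core stood in 6 of these, or 11.3%, against 1.81% of 27025 genes. The short site stood in 14, or 26.4%, against 8.06% of all genes. For the GABP core the counts were 11 members, or 20.8%, against 9.12%, and for the YY1 core AAGATGGC they were 7 members, or 13.2%, against 2.88%. The short site overlaps the NRF1 core where the core is preceded by T. A match is a run of letters and not a measured binding site. Of the 28 members with any of these motifs, 19 passed the test as lower at 6 h than at 1.5 h, and the median log2 difference of the 28 was -0.47. Of the 25 with none, 12 passed as lower, with a median of -0.44. Ndufb2, with none of the motifs, and Ndufs7, with only a YY1 core, passed whichever single array was left out.

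Tissue markers and array medians are given here beside the subunits, as muscle is rich in mitochondria. The part of tissue makeup in the subunit values was not tested. Keratinocyte markers were high on every array, with a mean log2 level over 8 genes between 11.01 and 11.45. Slow skeletal muscle markers stood far apart on 4 arrays, 1.5 h replicates 1 and 2 and 24 h replicates 1 and 3. There Myl2, the slow myosin regulatory light chain, read 10.56, 10.43, 10.57 and 9.33, against 4.29 to 6.88 on the other arrays. Glycam1, a mucin of lymph node venules and mammary epithelium, read 11.38 on 1.5 h replicate 1 and 10.88 on 6 h replicate 1, and 3.87 to 4.46 on the rest. The median over all probe sets ran from 5.65 to 5.70 in untreated skin and from 5.53 to 5.60 at 1.5 h. At 6 h it ran from 5.67 to 5.76, and at 24 h from 5.56 to 5.64, so it moved the other way from the subunits.

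The subunits as a set were lower at 6 h than at 1.5 h. Over the 66 members, the median difference from the untreated mean was 0.37, 0.36 and 0.16 (log2) on the 1.5 h arrays and -0.08, -0.21 and -0.17 on the 6 h arrays. It was 0.26, -0.14 and 0.22 at 24 h, and 0.09, -0.09 and 0.00 on the untreated arrays. The 1.5 h and 6 h arrays did not overlap. The 6 h and untreated arrays did, with 6 h replicate 1, at -0.08, inside the untreated range. The 24 h group held both high and low arrays. In bulk skin, fewer cells of a type and less RNA per cell cannot be told apart.

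**Figure D1:**
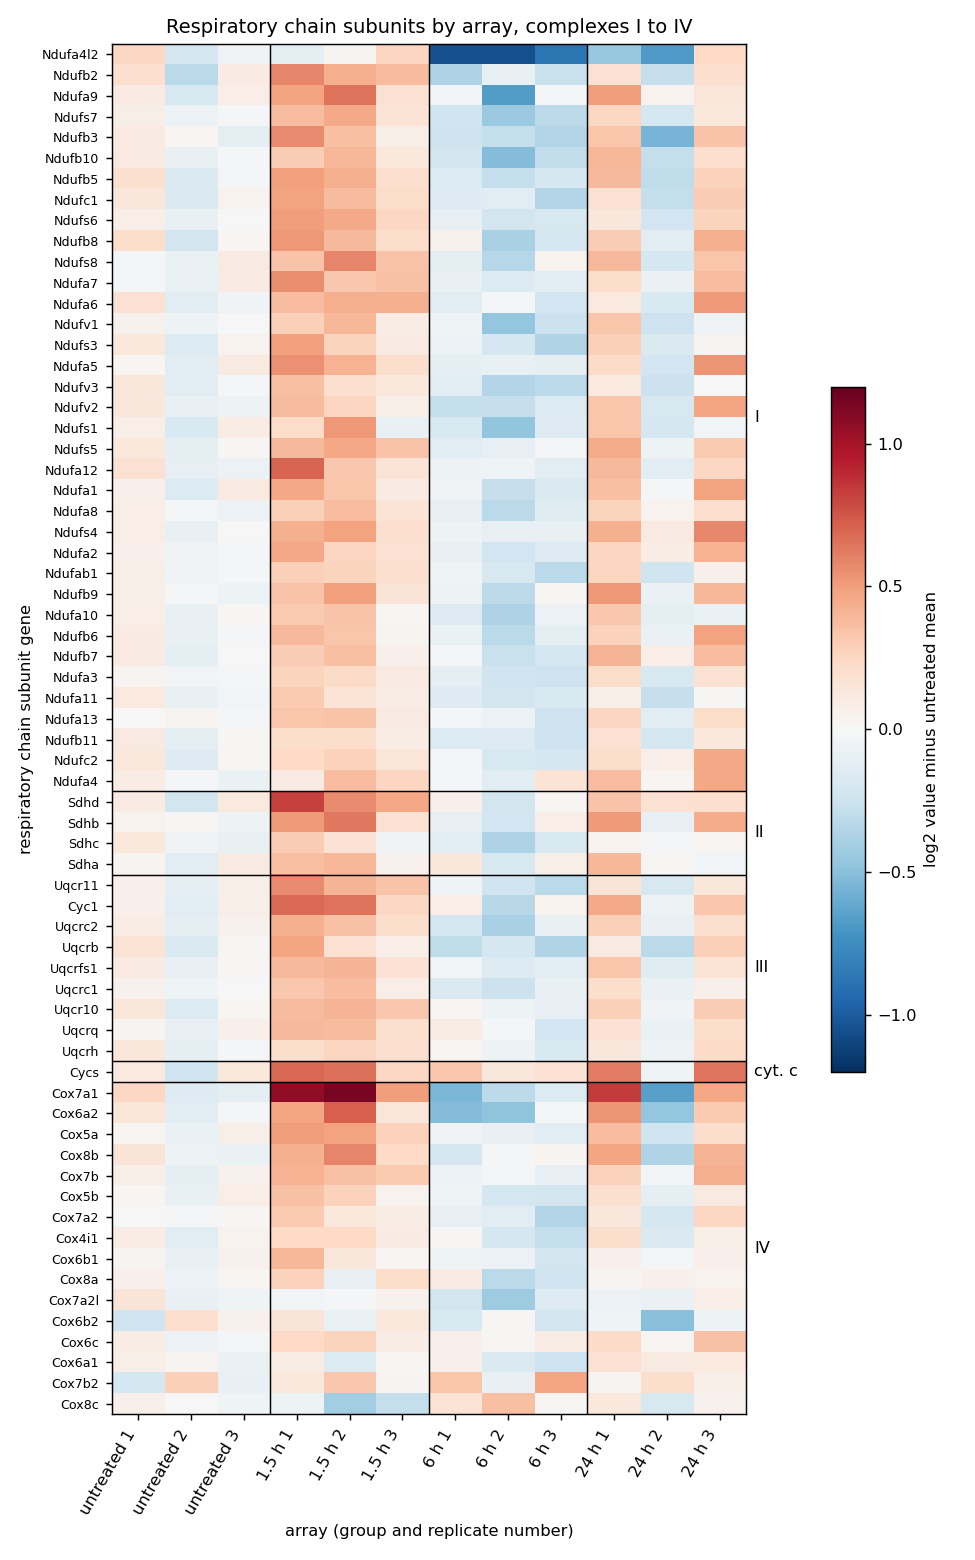
Log2 value minus the untreated mean (colour) for the 66 respiratory chain subunits (rows, by complex, sorted by the 6 h minus 1.5 h difference) on the 12 arrays (columns). Most rows are above 0 at 1.5 h and below 0 at 6 h, and 24 h replicate 2 differs from 24 h replicates 1 and 3.

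The 4 arrays on which the subunits were highest were also those high in slow muscle markers. The 6 slow muscle markers had a median difference from untreated of 3.66, 3.67 and 0.23 at 1.5 h, -0.05, -0.21 and 0.98 at 6 h, and 4.0, -0.14 and 2.73 at 24 h. Of 30 skeletal muscle markers, 28 were lower at 6 h than at 1.5 h by value. The test was passed as lower by 2, Mb and Myl1, next to 7.80% of all genes. The mean log2 level of those 30 was 9.79 to 9.88 in untreated skin, 9.93 to 11.16 at 1.5 h, 9.57 to 10.21 at 6 h and 9.53 to 11.12 at 24 h. Within the 1.5 h group replicate 3 had the lowest slow muscle markers and a subunit median of 0.16, above all 6 h arrays and all untreated arrays. Its mean level of the 6 slow muscle markers was 5.46, against 5.13 to 5.34 in untreated skin. Its mean level of the 30 markers, 9.93, was also above all untreated arrays. The part of muscle in the subunit differences was not tested.

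Other cell type markers also differed between these groups, not all in the same direction. Of 11 white adipocyte genes, all 11 were lower at 6 h than at 1.5 h by value, with a median of -0.49 and 2 that passed, Lep and Dgat2. All 11 were above 6 h at 24 h, with a median of 0.32 and 0 that passed. Their mean level on the log2 scale was 9.81 to 10.01 in untreated skin, 9.77 to 10.14 at 1.5 h, 9.14 to 10.08 at 6 h and 9.57 to 10.08 at 24 h. Of 9 genes of glandular epithelium, all 9 were above untreated skin at 1.5 h, with a median of 2.03 and 4 that passed as higher, and all 9 were below 1.5 h at 6 h, with a median of -0.97 and 2 that passed as lower. Their mean level was 5.59 to 5.76 in untreated skin, 7.35 to 8.43 at 1.5 h, 5.54 to 8.16 at 6 h and 7.12 to 7.64 at 24 h. Of 14 leukocyte genes, 11 were below 1.5 h at 6 h by value, while 1 passed, as higher, Ptprc. The mean level of the 14 was 7.66 to 8.01 in untreated skin, 7.96 to 8.92 at 1.5 h, 7.75 to 8.71 at 6 h and 8.24 to 8.44 at 24 h. At 6 h against 1.5 h all 8 keratinocyte genes were below 0, with a median of -0.15 and 0 that passed. Of 7 brown adipocyte genes 5 were above 0 there, with a median of 0.20 and 2 that passed as higher. Of 8 fibroblast genes 6 were above 0, with a median of 0.19 and 0 that passed. Of all genes, 7.80% fell and 5.47% rose at 6 h against 1.5 h. At 1.5 h against untreated skin 0.612% rose, and at 24 h against 6 h 2.03% rose. The part of these cells in the subunit differences was not tested.

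**Figure D2:**
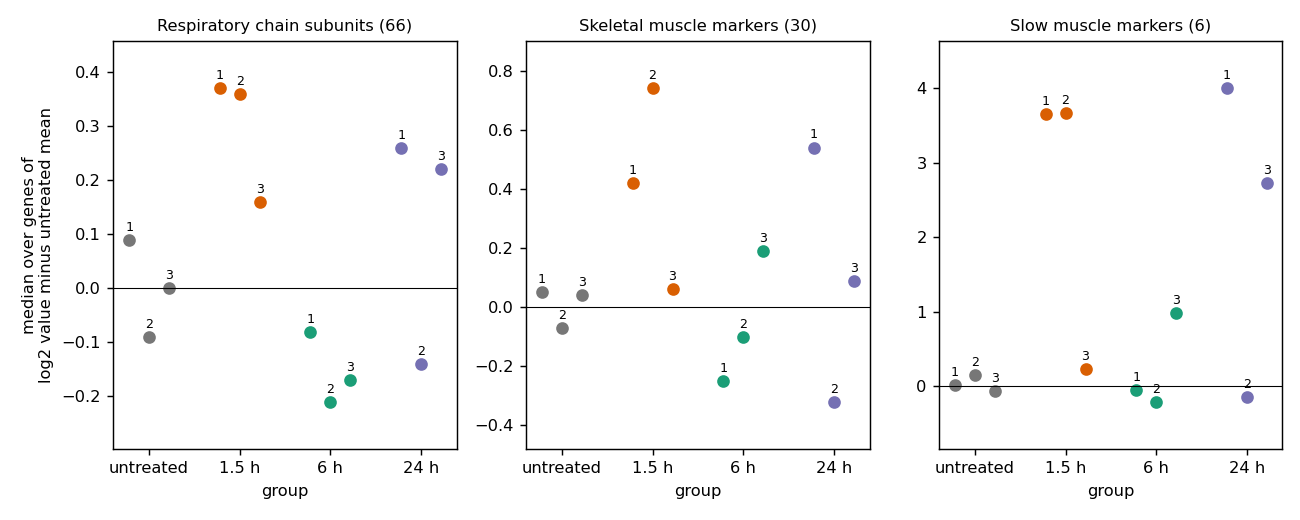
Median over genes of the log2 value minus the untreated mean on each array, by group, for the 66 subunits, 30 skeletal muscle markers and 6 slow muscle markers; each point is an array with its replicate number. The 1.5 h replicates 1 and 2 and the 24 h replicates 1 and 3 are high in the subunits and in slow muscle markers, and 1.5 h replicate 3 is at 0.16 for the subunits with 0.23 for slow muscle.

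At 1.5 h against untreated skin, Sdhd rose and no subunit fell by the test, which was limma's moderated test with Benjamini-Hochberg adjustment over all 19938 genes and an adjusted p under 0.05. That is 1 of 66 higher, against 0.612% of all genes, and 0 lower, against 1.59%. At an unadjusted p under 0.05, 31 members passed, against 3490 of all 19938 genes. By value, 64 of 66 were above untreated, with a median difference of 0.28 (log2) against 0.02 over all genes, and in 40 members every 1.5 h array lay above every untreated array, which holds for 11.8% of all genes. The values below untreated were those of Cox8c and Cox6a1. Without the 4 Myl2-rich arrays the median was 0.16, and with the muscle marker mean as a covariate it was 0.12.

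Sdhd encodes a membrane anchor of succinate dehydrogenase. It read 9.68, 9.43 and 9.32 at 1.5 h, against 8.96, 8.64 and 8.98 in untreated skin. The groups did not overlap, and the difference was 0.62 ± 0.13 (SE, log2, n = 3 each; limma adjusted p = 0.0297), a 1.53-fold rise. Without the 4 Myl2-rich arrays it was 0.46 (adjusted p = 0.400), with 1 array left at 1.5 h that is assumed to vary like the others. With the muscle marker mean as a covariate it was 0.51 (adjusted p = 0.238).

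At 6 h against untreated skin, Ndufa4l2 fell and no subunit rose, so 1 of 66 was lower against 2.71% of all genes, and 0 were higher against 3.38%. By value 60 members, Ndufa4l2 among them, were below untreated, with a median of -0.16 against -0.04 over all genes. With cyclic loess the median was -0.05 with 45 members below untreated, against -0.01 over all genes. An unadjusted p under 0.05 was met by 5 members, against 4616 of all 19938 genes. At 24 h no subunit passed in either direction, against 2.55% of all genes higher and 0.808% lower. There 6 members had an unadjusted p under 0.05, against 3407 of 19938 genes, and the members' median was 0.11. It was -0.14 without the 4 Myl2-rich arrays, with 53 members below untreated.

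Ndufa4l2 encodes a paralogue of the subunit Ndufa4 that is known as a target of the hypoxia factor HIF-1 and as a brake on respiration. It read 10.48, 10.03 and 10.19 in untreated skin, 10.11, 10.26 and 10.49 at 1.5 h, 9.18, 9.18 and 9.35 at 6 h and 9.78, 9.55 and 10.47 at 24 h. All 6 h arrays lay below every other array. It fell 2.0-fold at 6 h against untreated skin (log2 difference -1.0 ± 0.20, SE, n = 3 each; limma adjusted p = 0.00871). Against 1.5 h the difference was -1.05 ± 0.20 (adjusted p = 0.00520), and the 24 h arrays spread over both levels. Without the 4 Myl2-rich arrays the differences were -1.0 against untreated (adjusted p = 0.00257) and -1.26 against 1.5 h (adjusted p = 0.00853). Its partner Ndufa4 read 11.62, 11.49 and 11.79 at 6 h, against 11.72, 11.62 and 11.55 in untreated skin, and overlapped.

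Ndufa4l2 is abundant in vascular mural cells, so a list of 10 pericyte and smooth muscle genes was added after its values had been seen. At 6 h against untreated skin 8 of the 10 were below 0 by value, with a median of -0.21, and 1 passed, Pdgfrb, which was higher. At 6 h against 1.5 h, 3 passed as higher, Pdgfrb, Myh11 and Acta2, and 0 as lower. At 1.5 h against untreated skin 9 of the 10 were below 0, with a median of -0.37, and 2 passed as lower, Myh11 and Myl9. Pdgfrb, a growth factor receptor of pericytes, read 8.53, 8.60 and 8.56 at 6 h, against 7.76, 7.70 and 7.72 in untreated skin. Rgs5, a pericyte marker, read 8.63, 8.02 and 8.06 at 6 h, against 8.57, 8.56 and 8.61 in untreated skin. The mean log2 level of the list was 8.24 to 8.37 in untreated skin, 7.80 to 7.98 at 1.5 h, 8.10 to 8.30 at 6 h and 7.77 to 8.27 at 24 h. Of all genes, 3.38% rose at 6 h and 1.59% fell at 1.5 h against untreated skin. At 6 h against 1.5 h, 5.47% rose. The part of such cells in the Ndufa4l2 difference was not tested.

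Of the 6 comparisons, 6 h against 1.5 h had the most calls. Of the 66 subunits, 38 fell, against 7.80% of all genes, and 1 rose, Cox8c, against 5.47%. The median difference was -0.46 (log2) against -0.03 over all genes, and 64 members were below 0. At an unadjusted p under 0.05, 59 members passed, against 5959 of all 19938 genes. In 57 members every 6 h array lay below every 1.5 h array, which holds for 19.8% of all genes. Most members are bright: 56 have a mean of at least 9, and among the 1575 genes at or above that level 16.3% fell, with a median of -0.18, while 35 of the 56 members fell.

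Few of these calls were made with a muscle covariate or with some of the arrays left out. Without the 4 Myl2-rich arrays, 1 array is left at 1.5 h and at 24 h, so fewer calls can be made. The median was then -0.32, with 64 members still below 0. With the muscle marker mean as a covariate the count lower was 1, against 1.25% of all genes, and the median was -0.28. With the slow muscle mean the count was 2, Ndufa4l2 and Ndufs7, against 1.32% of all genes. Without the 2 Glycam1-rich arrays 5 were lower, against 3.56% of all genes, at a median of -0.44. Leaving out 1 array moved the count lower between 5 and 49. It was 8 and 7 when 1.5 h replicate 1 or 2 was dropped, against 3.87% and 2.55% of all genes. When 6 h replicate 2 or 3 was dropped it was 5 and 18, against 1.95% and 5.16%. It was 49 when 24 h replicate 2 was dropped, against 8.20%. The share of all genes called lower thus also changed with the setting, from 7.80% as reported.

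**Figure D3:**
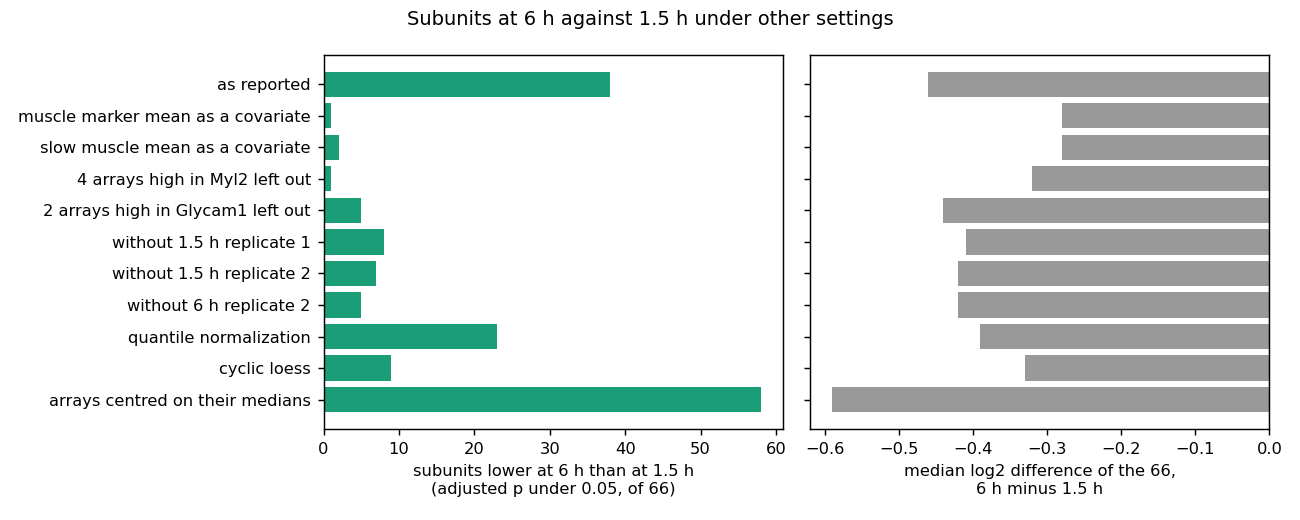
Number of subunits lower at 6 h than at 1.5 h by limma at an adjusted p under 0.05 (left, of 66) and median log2 difference, 6 h minus 1.5 h (right), as reported and under 10 other settings. The count runs from 1 to 58, while the median stays between -0.59 and -0.28.

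In complex I, which holds the first proton pump, 23 of 36 subunits fell at 6 h against 1.5 h and the rest, all below 0, did not pass. The complex's median was -0.48. Ndufs7, an iron-sulphur subunit near the ubiquinone site, read 9.54, 9.33 and 9.47 at 6 h, against 10.15, 10.23 and 9.94 at 1.5 h. The groups did not overlap, and the difference was -0.66 ± 0.13 (SE, log2; limma adjusted p = 0.00584). It kept an adjusted p under 0.05 on leaving out any 1 array, with 0.0335 the highest.

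Ndufb2, an accessory subunit of the membrane arm, read 8.41, 8.69 and 8.51 at 6 h, against 9.37, 9.22 and 9.16 at 1.5 h. Its difference was -0.71 ± 0.16 (SE, log2; limma adjusted p = 0.0127), and no array left out took it past 0.0445. The other core subunits of the matrix arm that fell were Ndufs3 (-0.50), Ndufs8 (-0.56) and Ndufv1 (-0.52). Ndufs1, which carries several iron-sulphur clusters, and Ndufv2 stood at -0.48 each with adjusted p of 0.0766 and 0.0550. Ndufab1, which is also the mitochondrial acyl carrier protein, fell by 0.44. Ndufs4 and Ndufs6, whose loss causes Leigh syndrome and related disease in humans, fell by 0.45 and 0.57. The smallest complex I difference was that of Ndufa4, which is now known to sit in complex IV, at -0.24 (adjusted p = 0.233).

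In complex II, succinate dehydrogenase, 3 of 4 subunits fell at 6 h against 1.5 h. Sdhd read 8.92, 8.64 and 8.87 at 6 h, against 9.68, 9.43 and 9.32 at 1.5 h, a difference of -0.67 ± 0.13 (SE, log2; limma adjusted p = 0.00586). Its 6 h arrays covered about the range of the untreated arrays, and all 24 h arrays, at 9.20, 9.04 and 9.06, lay above both. Sdhb, the iron-sulphur subunit, fell by 0.52, and Sdhc, the other anchor, fell by 0.37. Sdha, the flavoprotein with the succinate site, stood at -0.26 (adjusted p = 0.244).

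In complex III, the cytochrome bc1 complex, 7 of 9 subunits fell at 6 h against 1.5 h and all 9 were below 0. Uqcr11, a small accessory subunit, read 10.24, 10.05 and 9.97 at 6 h, against 10.86, 10.70 and 10.63 at 1.5 h, with no overlap. The difference was -0.64 ± 0.12 (SE, log2; limma adjusted p = 0.00568). Its second probe set differed by -0.71. Cyc1, the cytochrome c1 that passes electrons to cytochrome c, fell by 0.60 and the core proteins Uqcrc1 and Uqcrc2 fell by 0.43 and 0.56. The Rieske protein Uqcrfs1 fell by 0.43, while Uqcrh and Uqcrq stood at -0.30 and -0.37 without passing.

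Cycs, cytochrome c itself, carries electrons in the intermembrane space and triggers apoptosome formation when released. It read 9.86, 9.50 and 9.87 in untreated skin, 10.43, 10.40 and 9.99 at 1.5 h, 10.06, 9.88 and 9.91 at 6 h and 10.35, 9.69 and 10.38 at 24 h. Its 6 h arrays stayed above the untreated ones, unlike most subunits, but no comparison passed, and the 6 h against 1.5 h difference was -0.32 (limma adjusted p = 0.263). The lowest adjusted p of its 6 comparisons was 0.154, at 1.5 h against untreated skin.

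**Figure D4:**
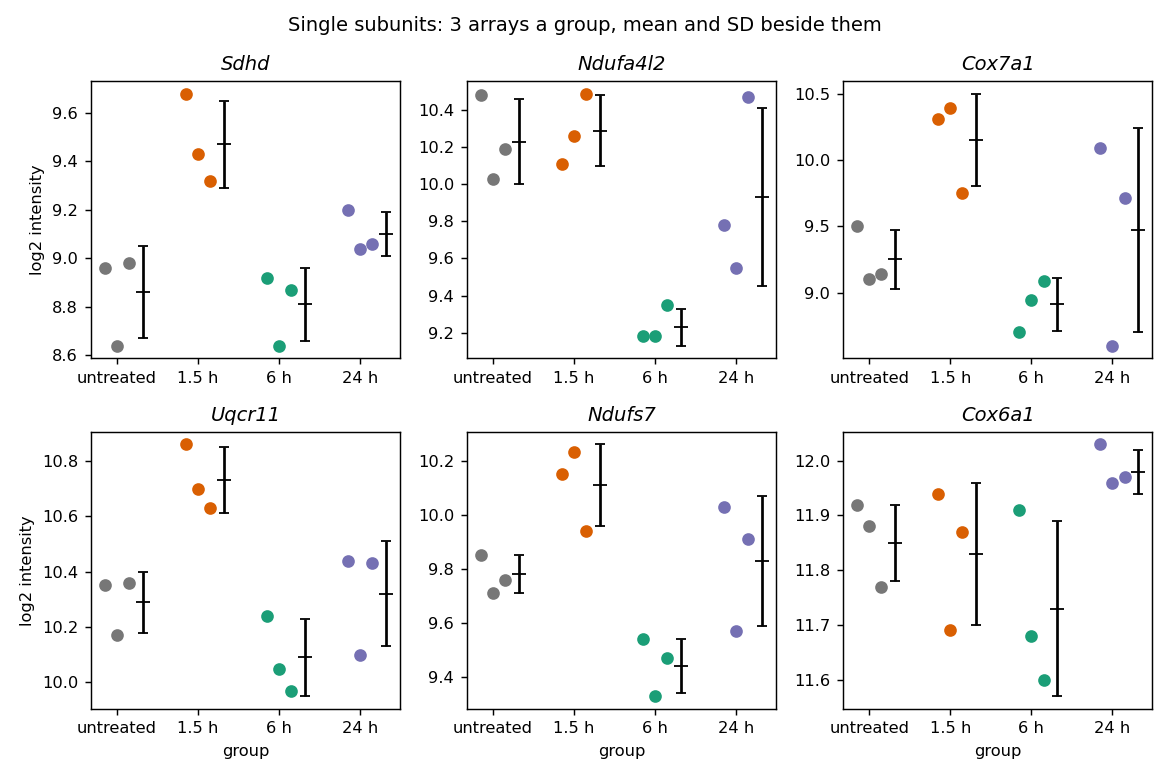
Log2 intensity of 6 single subunits by group, 3 arrays each (coloured points), with mean and SD (black). Ndufa4l2 is low at 6 h, at 9.18 to 9.35, and Sdhd is high at 1.5 h, at 9.32 to 9.68; Cox7a1 spreads from 8.60 to 10.09 at 24 h, and Cox6a1 overlaps between groups. The vertical axes differ between panels and do not start at 0.

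In complex IV, the terminal oxidase, 5 of 16 subunits fell at 6 h against 1.5 h, and 1 rose. Both Cox7a1 and Cox6a2 among the 5 are muscle forms. Cox7a1 read 9.50, 9.10 and 9.14 in untreated skin, 10.31, 10.39 and 9.75 at 1.5 h, 8.70, 8.94 and 9.09 at 6 h and 10.09, 8.60 and 9.71 at 24 h. Its 3 highest arrays were Myl2-rich ones, and the difference of 6 h from 1.5 h was -1.24 ± 0.30 (SE, log2; limma adjusted p = 0.0181). Without the Myl2-rich arrays it was -0.83 (adjusted p = 0.0877), and with the muscle covariate it was -0.59 (adjusted p = 0.0930). Cox7a2, the ubiquitous form, stood at -0.37 (adjusted p = 0.0678).

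Cox6a2 read 11.19, 11.23 and 11.70 at 6 h, against 12.18, 12.43 and 11.86 at 1.5 h, a difference of -0.78 (limma adjusted p = 0.0398). Its ubiquitous partner Cox6a1 read 11.91, 11.68 and 11.60 at 6 h, against 11.94, 11.69 and 11.87 at 1.5 h, with overlap and a difference of -0.11 (adjusted p = 0.537). Cox8b, the muscle form of the third pair, stood at -0.48 (adjusted p = 0.0983) and Cox8a at -0.29 (adjusted p = 0.149). In each pair the muscle form had the larger difference by value, and the difference within a pair was not tested.

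Of the ubiquitous complex IV subunits, Cox5a fell by 0.51, Cox7b by 0.42 and Cox5b by 0.39 at 6 h against 1.5 h. Cox4i1, the largest nuclear-encoded subunit, stood at -0.35 (limma adjusted p = 0.0714) and Cox6b1 at -0.30. Cox7a2l, which joins complex III and complex IV in supercomplexes, read close to untreated at 1.5 h (0.00) and stood at -0.27 at 6 h against 1.5 h. The testis forms Cox8c, Cox6b2 and Cox7b2 were dim, with Cox7b2 between 2.72 and 3.40, Cox8c between 4.35 and 5.13 and Cox6b2 between 5.39 and 6.09 over all arrays. The deposited table gives no detection calls, so dim genes were not called absent. Cox8c read 4.93, 5.13 and 4.78 at 6 h, against 4.71, 4.35 and 4.48 at 1.5 h, and rose by 0.43 (adjusted p = 0.0394); with quantile normalization it was 0.24 (adjusted p = 0.209).

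Between 24 h and 6 h no subunit passed, against 2.03% of all genes higher and 1.41% lower. By value 63 of 66 were above 6 h, with a median of 0.28 against 0.02 over all genes. An unadjusted p under 0.05 was met by 25 members, against 4098 of all 19938 genes. The median was 0.01 without the 4 Myl2-rich arrays, with 28 members below 0, and with the slow muscle mean as a covariate it was 0.13. Without 24 h replicate 2, the array of that group with the lowest subunit median, 13 passed as higher, against 410 of all 19938 genes. Each of the other 11 arrays left out gave 0 or 1. Between 24 h and 1.5 h none passed either, against 2.24% of all genes higher and 0.667% lower, and the members' median was -0.18. An unadjusted p under 0.05 was met there by 8 members, against 3114 of all 19938 genes. The moderated F test, which asks whether a gene changed at any of the 3 times, called 11 of 66, against 11.4% of all genes. They were Ndufa2, Ndufa4l2, Ndufa7, Ndufa8, Ndufb2, Ndufs4, Ndufs6, Ndufs7, Sdhd, Uqcr11 and Uqcrc2, and without the Myl2-rich arrays 1 was called.

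Other mitochondrial genes also fell. At 6 h against 1.5 h, 40 of 75 mitochondrial ribosomal protein genes fell and 0 rose, among them Mrpl45 (-0.79, limma adjusted p = 0.00290); the share of all genes that fell was 7.80%. Of 39 assembly factors of the complexes 15 fell, with Sdhaf4, which loads Sdha for assembly, at -1.09 (adjusted p = 0.00515). Of 15 ATP synthase genes 5 fell, Atp5g1 of the rotor ring by 0.62. Of 19 genes of the citrate cycle and pyruvate entry 9 fell. The list medians were -0.43, -0.36, -0.34 and -0.45, next to -0.03 over all genes. Without the Myl2-rich arrays 0 genes of each of these lists passed as lower, against 0.441% of all genes, and the medians were -0.38, -0.25, -0.25 and -0.30.

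Pdk4, which blocks the entry of pyruvate into the citrate cycle and rises with fasting, was the citrate list's largest mover. It read 10.14, 9.28 and 9.08 in untreated skin, 9.77, 9.45 and 10.14 at 1.5 h, 8.59, 8.45 and 7.90 at 6 h and 10.43, 9.76 and 9.53 at 24 h. Its 6 h arrays were the lowest 3. The difference was -1.47 against 1.5 h (limma adjusted p = 0.00717), -1.18 against untreated skin (adjusted p = 0.0305) and 1.59 for 24 h against 6 h (adjusted p = 0.0126). Without the Myl2-rich arrays, with 1 array left at 1.5 h and at 24 h, these differences were -1.82 (adjusted p = 0.0524), -1.18 (adjusted p = 0.0445) and 1.45 (adjusted p = 0.291).

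Of 17 regulators of mitochondrial biogenesis, 3 fell at 6 h against 1.5 h, next to 7.80% of all genes. The 3 were Tfam, Tfb2m and Tfb1m. Tfam, which packages mitochondrial DNA and starts its transcription, read 6.04, 5.94 and 5.86 at 6 h, against 6.83, 6.97 and 6.44 at 1.5 h. The difference was -0.80 ± 0.15 (SE, log2; limma adjusted p = 0.00452) and, without the Myl2-rich arrays, -0.50 (adjusted p = 0.160). Of the mitochondrial genome itself the array measured ND3 and COX2. COX2, the copper subunit of complex IV, read 12.68, 12.70 and 12.62 at 6 h, against 12.77, 12.62 and 12.65 at 1.5 h, and overlapped. ND3 of complex I read 11.58, 11.62 and 11.49 at 6 h, against 11.71, 11.66 and 11.62 at 1.5 h, and neither passed.

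Few related genes passed against untreated skin. Acad9, a complex I assembly factor and fatty acid dehydrogenase, read 8.17, 8.22 and 8.23 in untreated skin, 7.64, 7.75 and 7.88 at 1.5 h, 7.82, 7.90 and 7.87 at 6 h and 7.77, 7.79 and 7.87 at 24 h. Every treated array lay below every untreated one, and Acad9 fell at 1.5 h (-0.45, limma adjusted p = 0.0280), 6 h (-0.35, adjusted p = 0.0450) and 24 h (-0.40, adjusted p = 0.0340). Without the Myl2-rich arrays those differences were -0.33 (adjusted p = 0.402), -0.35 (adjusted p = 0.0731) and -0.41 (adjusted p = 0.279). At 1.5 h the ribosomal genes Mrpl20 and Mrps18b rose by 0.61 and 0.50, and Polg2, an accessory subunit of the mitochondrial DNA polymerase, fell by 0.67. Without the Myl2-rich arrays these differences were 0.60 (adjusted p = 0.199), 0.44 (adjusted p = 0.363) and -0.52 (adjusted p = 0.441), and Polg2 also lost its call with 9 of the 12 arrays left out in turn and under centring, quantile normalization, cyclic loess and the replicate block. At 24 h against 6 h, 7 of 75 mitochondrial ribosomal genes rose, next to 2.03% of all genes. Tfam rose by 0.59 in that comparison (limma adjusted p = 0.0482), and without the Myl2-rich arrays its difference was 0.36.

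At 6 h against 1.5 h, 3 of 16 glycolysis genes fell and 1 rose, next to 7.80% and 5.47% of all genes. The falls were Aldoc, Tpi1 and Slc16a3, a lactate exporter, and the rise was Pfkp, the platelet phosphofructokinase. Pfkp read higher at 6 h by 0.41 (limma adjusted p = 0.0306), while Slc16a3 differed by -0.80 (adjusted p = 0.00814). The list's median was -0.41.

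**Figure D5:**
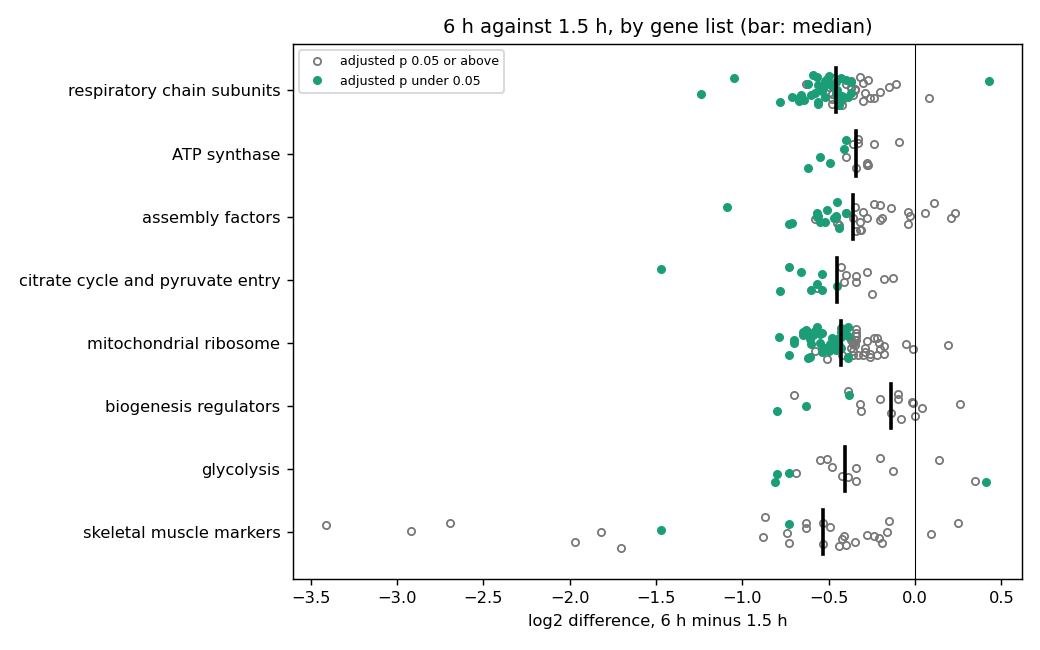
Log2 difference, 6 h minus 1.5 h, of each gene in the respiratory chain set and 7 other lists; filled points passed limma at an adjusted p under 0.05, open points did not, and the bar is the list's median. Most genes of the mitochondrial lists lie below 0, with medians from -0.46 for the subunits to -0.14 for biogenesis regulators, and skeletal muscle markers reach furthest below 0 with 2 filled points.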

How the data were processed

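The authors deposited log2 values of probe set brightness. The submitters' processing notes name RMA and Affymetrix Expression Console 1.1 as tools. The values cover 35556 probe sets of a Mouse Gene 1.0 array on 12 arrays. Genes were named from the platform annotation where a probe set had 1 symbol, and each gene was read from its brightest probe set by mean over all arrays. For the 12 members with several probe sets the others gave the same sign at 6 h against 1.5 h, apart from a dim one of Cycs. The RefSeq table lists the gene IDs of all 66. The build behind the array's annotation is not given in the sources used here.

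One linear model of the 4 groups was fitted in R 4.3.3 with limma 3.58.1 (lmFit, then eBayes). It had 8 residual degrees of freedom and 5.24 from the prior, and gave 6 comparisons and a moderated F test. P-values were two-sided and adjusted by Benjamini-Hochberg over 19938 genes. The script was tested on simulated data. An exact permutation test of 3 against 3 cannot go below p = 0.1. The number of arrays limits the precision, and p-values measure the spread between these samples.

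The members and lists were chosen with earlier results of these data known. Named genes are members called in any comparison or in the F test, the largest differences of each complex, the tissue-specific forms with their partners, cytochrome c, Cyc1 and succinate dehydrogenase, and called genes with the largest change in related lists; core and accessory subunits named beside them were chosen after their values were seen. Alternatives were other scalings, filters, array weights, covariates and arrays left out. Those with Myl2-rich or Glycam1-rich arrays left out, the slow muscle covariate and genes with a mean of at least 9 were chosen after seeing the data.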

Additional observations from a re-analysis of the deposited data

Results flagged for a closer look

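For 39 subunits the 6 h arrays differed from the 1.5 h arrays, tested in limma as the difference between both times. With no group given carrier alone, RNAdjuvant and injection cannot be told apart in it. In complex I the log2 differences (6 h minus 1.5 h) were Ndufa1 -0.46, Ndufa11 -0.37, Ndufa2 -0.45, Ndufa3 -0.40, Ndufa4l2 -1.05, Ndufa6 -0.54, Ndufa7 -0.54, Ndufa8 -0.46, Ndufa9 -0.67, Ndufab1 -0.44, Ndufb10 -0.62, Ndufb2 -0.71, Ndufb5 -0.59, Ndufb8 -0.56, Ndufc1 -0.58, Ndufs3 -0.50, Ndufs4 -0.45, Ndufs5 -0.48, Ndufs6 -0.57, Ndufs7 -0.66, Ndufs8 -0.56, Ndufv1 -0.52 and Ndufv3 -0.50. In complex II they were Sdhb -0.52, Sdhc -0.37 and Sdhd -0.67. In complex III they were Cyc1 -0.60, Uqcr10 -0.42, Uqcr11 -0.64, Uqcrb -0.53, Uqcrc1 -0.43, Uqcrc2 -0.56 and Uqcrfs1 -0.43. In complex IV they were Cox5a -0.51, Cox5b -0.39, Cox6a2 -0.78, Cox7a1 -1.24, Cox7b -0.42 and Cox8c 0.43. Without the 4 Myl2-rich arrays 1 of them, Ndufa4l2, passed. Of the 39, 5 passed with any 1 array left out: Ndufa4l2, Ndufb2, Ndufs7, Sdhd and Uqcr11.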

How the results depend on the processing

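The count of 39 subunits that differed between 6 h and 1.5 h was 1 with the muscle marker mean as a covariate, 2 with the slow muscle mean, 1 without the 4 Myl2-rich arrays, 5 without the 2 Glycam1-rich arrays, 23 with quantile normalization, 9 with cyclic loess and 58 with arrays centred on their medians, and 5 to 50 on leaving out 1 array. Centring moved the median of all genes to -0.17 against -0.03, and the subunits' median to -0.59. Over all genes, 760 were higher and 3849 lower with centring and 1142 higher and 936 lower with cyclic loess, against 1090 higher and 1556 lower as reported. Calls over all genes in either direction were 711 with the muscle covariate and 746 with the slow muscle mean, against 2646 as reported. They were 1432 without the Glycam1-rich arrays, and 949 to 2951 on leaving out 1 array. At 1.5 h the count of 1 was 0 with either muscle covariate, without the Myl2-rich or Glycam1-rich arrays and in a fit of the groups compared alone, and 0 to 2 on leaving out 1 array. The median at 1.5 h, 0.28, was 0.12 with the muscle covariate and 0.10 with the slow muscle mean. At 24 h the count was 0 to 1 on leaving out 1 array, and the median was -0.14 without the Myl2-rich arrays and -0.05 with the slow muscle mean, against 0.11 as reported. For 24 h against 6 h the count of 0 was 5 with centring, 3 with a trended prior, 4 among genes with a mean of at least 5 or of at least 9, and 0 to 13 on leaving out 1 array. The F test's 11 became 33 with centring, 4 with quantile normalization, 3 with cyclic loess, 19 and 20 among genes with a mean of at least 5 and 9, 1 with either covariate or without the Myl2-rich or Glycam1-rich arrays, and 1 to 38 on leaving out 1 array. Ndufa4l2 kept both its calls at 6 h under all 12 arrays left out and 15 other settings, and its F test lost the threshold without 6 h replicate 2 (adjusted p = 0.0571). Whether the replicate numbers pair the samples was not settled by correlations. Of 18 pairs with the same number 4 correlated above 0.1, and 6 of 12 arrays correlated best with their own number. Same-number pairs ran from -0.215 to 0.334 and other pairs from -0.285 to 0.238. With the replicate block, 39 subunits were lower and 1 higher at 6 h against 1.5 h. Of 279 counts and medians under other settings, 229 stayed close to the reported value, and the cause of the moves was not tested. Many of the medians could not move, so this tally does not measure how stable the results are. A median difference keeps its value when an array outside the groups compared is left out. The same holds for a trended or robust prior, the replicate block and a fit of the groups compared alone. At 1.5 h the median was 0.28 in all of these. The count for 24 h against 1.5 h was 0 in every setting. A count was taken as close within a factor of 1.5, or at 0 where 0 was reported. A median was taken as close if it moved by less than its pooled SD between arrays of a group, 0.14. That range is wider than the 24 h median of 0.11.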
